A study of Trichoderma guizhouense with 100 samples.

Results

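OPB36832 is a gene of the filamentous fungus *Trichoderma guizhouense* NJAU4742 whose deposited annotation reads Zn2Cys6 transcriptional regulator, and the study that produced these data takes it as the homolog of ACE3. It is 1 of the 11244 genes in the table of normalised expression values, taken from it by its identifier, and its level is described in all 34 groups of the series. ACE3 is known from *Trichoderma reesei*, where this zinc binuclear cluster protein activates cellulase genes and binds the promoters of cellulase genes and of *xyr1*, the gene of the main cellulase and xylanase activator. Fungi of this genus keep such hydrolase genes low on glucose and switch them on when a polysaccharide has to be broken down outside the cell. Zn2Cys6 proteins form the largest family of fungal regulators, and they often bind as dimers to short paired motifs in promoters.

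RNA-seq was done on 100 libraries of 4 strains. The mutants ∆Tgxyr1, ∆Tgace1 and ∆Tgace2 lack TgXyr1, TgACE1 and TgACE2, each gene having been replaced by a hygromycin resistance cassette, and the reference strain was WT NJAU4742. Mycelium grown on glucose (0 h) was moved to xylan or to Avicel, a microcrystalline cellulose, and sampled after 4, 24 and 72 h. For ∆Tgxyr1 and WT there was also a medium with no carbon source (CS) at the same times. This gave 30 libraries in 10 groups for ∆Tgxyr1, 21 in 7 groups for ∆Tgace1, 21 in 7 groups for ∆Tgace2 and 28 in 10 groups for WT. Each group had 3 libraries, except WT on CS at 4 h and 72 h with 2. The sources used here do not say how many independent transformants stand behind each mutant. Values are RPKM, reads scaled to gene length and to the mapped reads of the library, and a lower level of a transcript cannot be told apart from a rise of other transcripts in the same library. Differences are on the log2(RPKM + 1) scale with the standard error of limma, and p-values are Benjamini-Hochberg adjusted over 10026 genes. The p-values rest on the spread between replicate cultures pooled over all 34 groups, not on that of the compared groups alone. Groups of equal size thus get the same standard error for a gene, also where their replicates are uneven. A difference was called when its adjusted p did not exceed 0.01, its size on the log2 scale reached 2, and the group with the higher level averaged more than 2 RPKM.

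The labels held for the deleted genes that could be read. TgXyr1 (OPB38038) was listed at 0 in 23 of 30 ∆Tgxyr1 libraries and reached at most 0.168 RPKM there, against 1.29 to 143.1 RPKM in WT. TgACE2 (OPB44681) was listed at 0 in 20 of 21 ∆Tgace2 libraries with a highest value of 0.163 RPKM, against 1.59 to 8.09 RPKM in WT, and TgACE1 was not analysed here. Over all genes, 9 of the 100 libraries correlated better with a library of another group than with their own. Those that touch the results below are WT on Avicel at 72 h, replicate 2, with a mean r of 0.784 to its own group against a median of 0.985 over all libraries, and ∆Tgace1 on xylan at 24 h, replicate 2, with 0.933. The closest library to the first was WT on CS at 72 h, replicate 2, with an r of 0.972. The closest to the second came from ∆Tgace2 on xylan at 24 h, with an r of 0.968, although its own TgACE2 level was 6.56 RPKM.

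OPB36832 was expressed in every library. Its lowest value was 8.01 RPKM, the median 26.9 RPKM and the highest 310.1 RPKM, and its rank among all genes, averaged over the libraries of a group, lay between percentiles 54.2 and 94.5. Before transfer the strains were alike in level. On glucose at 0 h it had 13.9, 11.2 and 11.8 RPKM in ∆Tgxyr1, 16.1, 14.6 and 13.3 RPKM in ∆Tgace1, 15.4, 14.8 and 11.7 RPKM in ∆Tgace2, and 11.6, 15.8 and 10.1 RPKM in WT. All 12 values lay between 10.1 and 16.1 RPKM and the ranges of the 4 strains overlapped. The mutants differed from WT at 0 h by −0.00 in ∆Tgxyr1, 0.24 in ∆Tgace1 and 0.16 in ∆Tgace2 (each ± 0.27), and none of these passed the test.

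**Figure D1:**
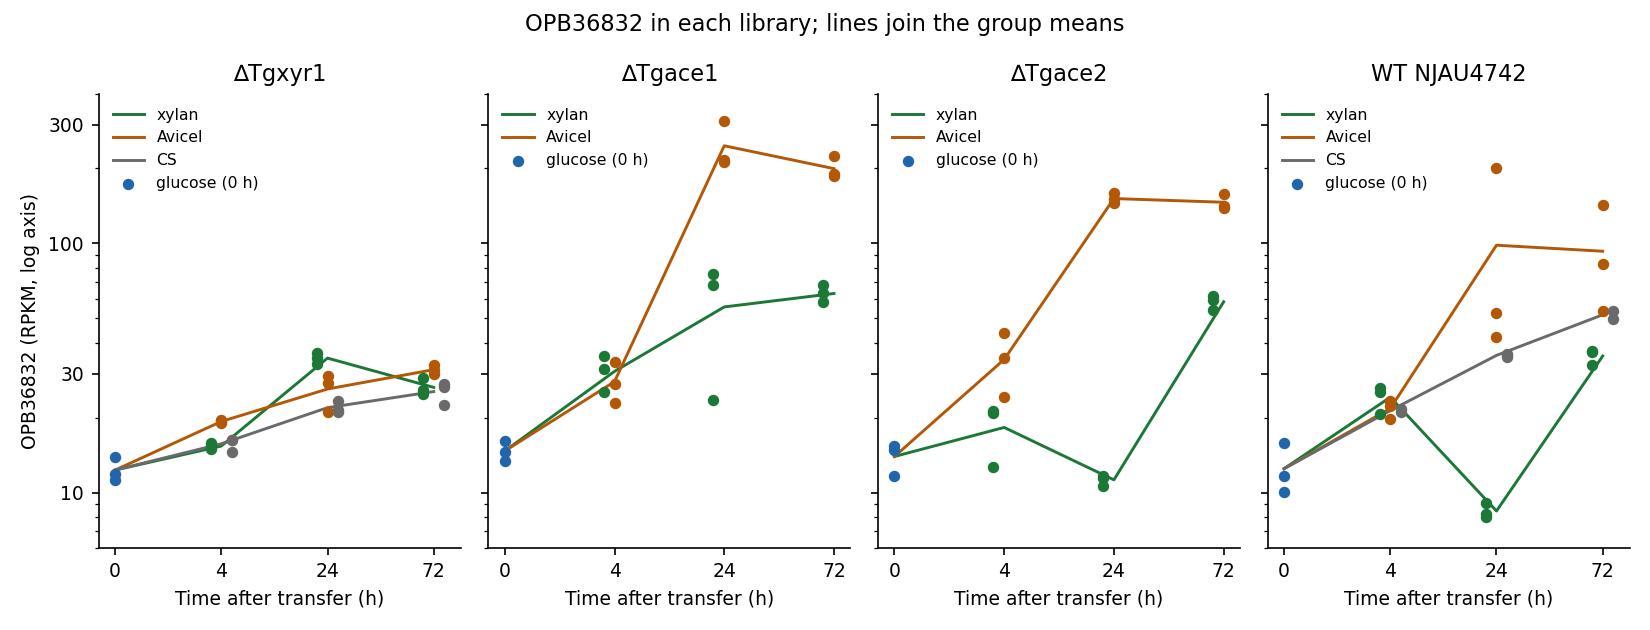
RPKM of OPB36832 (log axis) against hours after transfer in ∆Tgxyr1, ∆Tgace1, ∆Tgace2 and WT, where points are single libraries and lines join group means by carbon source. The ∆Tgxyr1 libraries stayed between 11.2 and 36.5 RPKM, while Avicel values at 24 h reached 310.1 RPKM in ∆Tgace1 and 200.4 RPKM in WT.

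The group means ran over a 29.3-fold range. At the top stood ∆Tgace1 on Avicel at 24 h (246.7 ± 54.9 RPKM, SD, n = 3) and at 72 h (199.7 ± 20.9), then ∆Tgace2 on Avicel at 24 h (151.5 ± 6.83) and at 72 h (146.4 ± 10.3), then WT on Avicel at 24 h (98.4 ± 88.5) and at 72 h (93.1 ± 45.6). The 6 highest places were thus held by late Avicel cultures of the strains that carry TgXyr1. Next came ∆Tgace1 on xylan at 72 h (63.0 ± 4.87), ∆Tgace2 on xylan at 72 h (58.3 ± 3.97), ∆Tgace1 on xylan at 24 h (55.6 ± 28.0) and WT on CS at 72 h (51.7 ± 2.96, n = 2). The highest ∆Tgxyr1 group, xylan at 24 h, followed only at 34.7 ± 1.79 RPKM. At the bottom were ∆Tgace2 on xylan at 24 h (11.2 ± 0.504) and WT on xylan at 24 h (8.43 ± 0.598).

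Most neighbours in this order could not be separated. Of the 33 pairs of adjacent groups, 4 had libraries that did not overlap: ∆Tgace1 against ∆Tgace2 on Avicel at 72 h and 24 h, WT on CS at 72 h against WT on CS at 24 h, WT on CS at 4 h against ∆Tgxyr1 on Avicel at 4 h, and ∆Tgace2 against WT on xylan at 24 h. The span between the highest and lowest group mean was 2.82-fold in ∆Tgxyr1, 16.8-fold in ∆Tgace1, 13.5-fold in ∆Tgace2 and 11.7-fold in WT. Replicates were mostly close, with a median coefficient of variation of 8.14%, and in 3 groups the highest library was over 2 times the lowest: ∆Tgace1 on xylan at 24 h and WT on Avicel at 24 h and 72 h.

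The transfer to a polysaccharide asks how far the regulator follows its carbon source. Against 0 h of its own strain, OPB36832 was called higher in 7 of 30 comparisons and lower in none. It reached an adjusted p of at most 0.01 without the fold limit in 22. Where genes that rose or fell are counted further below, these are counts of calls. Over all genes, 6.86% of the gene-and-comparison pairs of these 30 comparisons were called higher. Of the 7 calls, 6 were Avicel at 24 h and 72 h in ∆Tgace1, ∆Tgace2 and WT, and the other was ∆Tgace1 on xylan at 72 h.

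In WT on Avicel at 24 h the gene had 42.0, 52.8 and 200.4 RPKM, against 11.6, 15.8 and 10.1 RPKM at 0 h. All 3 Avicel libraries were above the highest 0 h library, and replicate 3 was far above the other two. The difference was 2.55 ± 0.27 (limma, adjusted p = 1.7e-12), and 6.88% of all genes were called higher in this comparison. Without replicate 3 the difference was 1.86, below the fold limit, with an adjusted p of 2.0e-09. At 72 h on Avicel the values were 143, 53.4 and 82.8 RPKM, again all above 0 h, and the difference of 2.71 ± 0.27 was called (adjusted p = 1.5e-12), as were 2.85% of all genes. With the spread taken only from the compared groups, the adjusted p was 0.013 at 24 h and 0.082 at 72 h, so both calls rest on the spread shared by all groups.

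In ∆Tgace1 and ∆Tgace2, which carry TgXyr1, the level on Avicel at 24 h and 72 h also rose against 0 h. In ∆Tgace1 on Avicel at 24 h it had 217, 310.1 and 213 RPKM, against 16.1, 14.6 and 13.3 RPKM at 0 h. This was the largest of the 30 differences, 3.96 ± 0.27 (adjusted p = 5.1e-20), where 4.27% of genes were called higher. At 72 h the 3 libraries had 186, 190 and 224 RPKM, and the difference was 3.68 ± 0.27 with 4.07% of genes called higher. In ∆Tgace2 on Avicel the gene had 145, 150 and 159 RPKM at 24 h and 142, 139 and 158 RPKM at 72 h, against 15.4, 14.8 and 11.7 RPKM at 0 h. No library of either strain on Avicel at these times overlapped its 0 h libraries. The differences in ∆Tgace2 were 3.36 ± 0.27 (adjusted p = 5.1e-17) at 24 h and 3.31 ± 0.27 at 72 h, in comparisons where 7.24% and 5.79% of genes were called higher.

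At 4 h on Avicel the level was below that of 24 h and 72 h in every strain, but already above 0 h. In each strain all libraries of 4 h lay above those of 0 h, without overlap. The libraries had 19.3, 19.6 and 19.0 RPKM in ∆Tgxyr1, 27.3, 33.4 and 22.9 RPKM in ∆Tgace1, 24.3, 34.6 and 43.8 RPKM in ∆Tgace2 and 19.7, 22.3 and 23.3 RPKM in WT. The log2 differences from 0 h were 0.61, 0.87, 1.21 and 0.78 in that order of strains, none of which reached the fold limit.

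**Figure D2:**
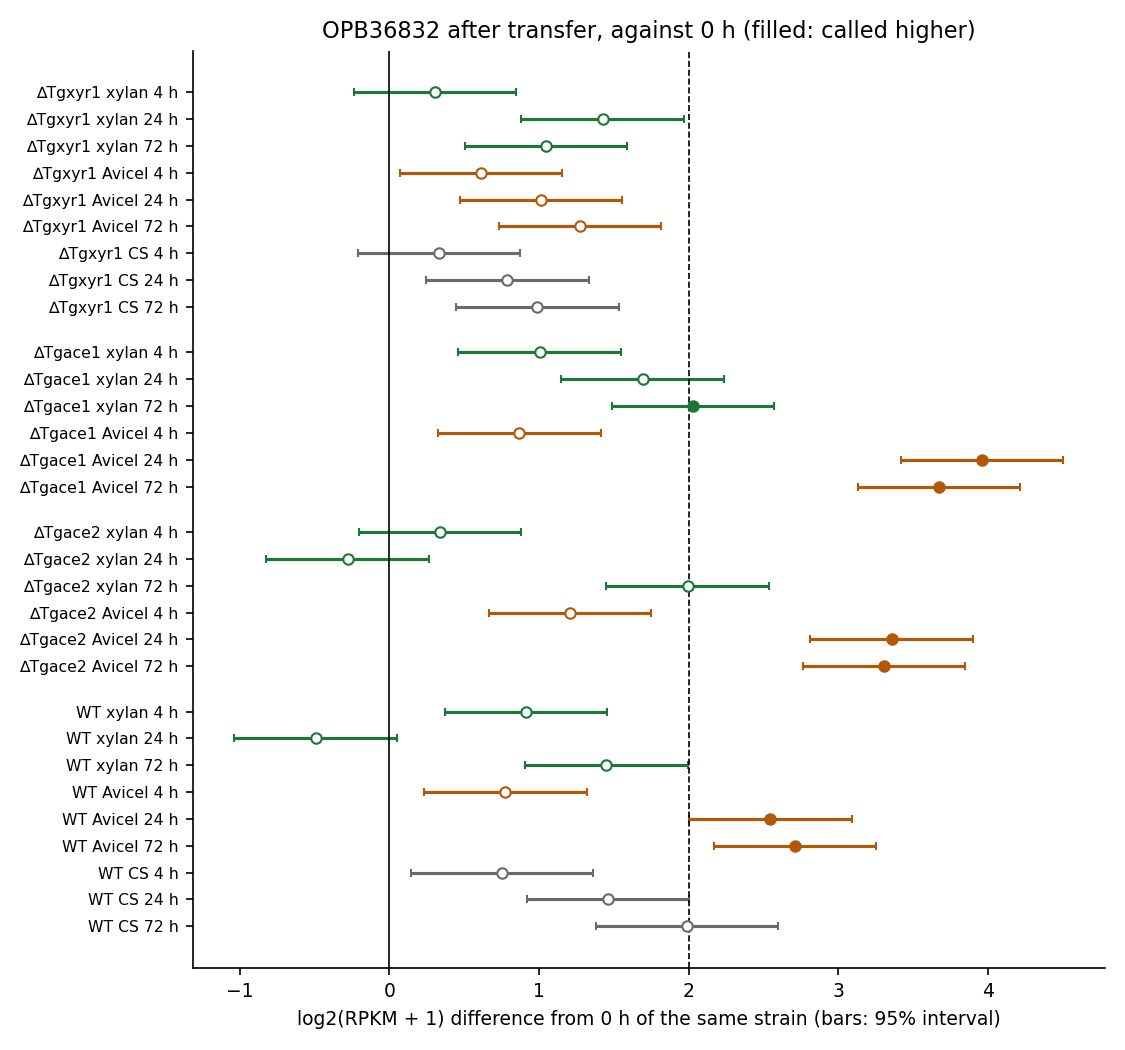
Log2 difference of OPB36832 from 0 h of the same strain for the 30 transferred groups, as points with 95% intervals, filled where the difference was called, with a dashed line at the fold limit of 2. The filled points are Avicel at 24 h and 72 h in ∆Tgace1, ∆Tgace2 and WT, and ∆Tgace1 on xylan at 72 h.

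In WT, xylan gave a level that was not monotonic in time. The 3 libraries had 25.4, 20.7 and 26.3 RPKM at 4 h, 8.01, 9.12 and 8.17 RPKM at 24 h and 36.9, 36.5 and 32.6 RPKM at 72 h. Those of 24 h lay below every 0 h library and those of 4 h and 72 h above. The log2 differences from 0 h were 0.91 (adjusted p = 0.0034), −0.49 (adjusted p = 0.14) and 1.45 (adjusted p = 4.6e-06), each ± 0.27, and none was called. By comparison 4.58% of genes were called higher at 24 h and 8.94% at 72 h. The dip at 24 h was also present in ∆Tgace2, with 21.3, 20.8 and 12.7 RPKM at 4 h, 11.4, 10.7 and 11.6 RPKM at 24 h and 61.8, 54.0 and 59.2 RPKM at 72 h. There the 24 h libraries lay just below those of 0 h, the difference at 24 h was −0.28 ± 0.27 (adjusted p = 0.41), and that at 72 h was 1.99 ± 0.27 (adjusted p = 3.0e-09), just under the fold limit.

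Neither ∆Tgace1 nor ∆Tgxyr1 had such a dip. On xylan ∆Tgace1 had 35.3, 31.2 and 25.4 RPKM at 4 h, 68.2, 23.5 and 75.2 RPKM at 24 h and 58.1, 63.0 and 67.8 RPKM at 72 h. Replicate 2 of 24 h, the library closest to a ∆Tgace2 library, was the low one. The difference from 0 h was 1.69 ± 0.27 at 24 h, not called, and 2.21 without that replicate, which passed. At 72 h it was 2.03 ± 0.27 (adjusted p = 2.3e-09), and 5.97% of all genes were called higher there. The call was lost without replicate 3 of 0 h (1.97) or replicate 3 of 72 h (1.97). ∆Tgxyr1 on xylan had 15.4, 15.8 and 14.9 RPKM at 4 h, 34.6, 36.5 and 32.9 RPKM at 24 h and 28.8, 25.7 and 24.8 RPKM at 72 h, so its peak fell at 24 h, where WT had its lowest level.

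The calls between the polysaccharides all fell at 24 h. OPB36832 was called higher on Avicel than on xylan in 3 of 12 comparisons and lower in none, and 6 of 12 had an adjusted p of at most 0.01. Over all genes 3.71% of the gene-and-comparison pairs were called in either direction. In WT at 24 h the Avicel libraries had 42.0, 52.8 and 200.4 RPKM and the xylan libraries 8.01, 9.12 and 8.17 RPKM, with no overlap. The difference of 3.04 ± 0.27 (limma, adjusted p = 5.8e-15) was 2.35 without the high Avicel library and was called either way. In this comparison 4.66% of genes were called higher on Avicel, 467 genes against 780 lower, and 345 against 998 after median scaling.

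∆Tgace2 gave the widest gap between the substrates, 3.64 ± 0.27 (adjusted p = 6.7e-18), with 3.97% of genes called higher. ∆Tgace1 gave 2.27 ± 0.27 (adjusted p = 3.8e-10), with 1.97% of genes called higher, and 1.75 without replicate 2 on xylan, so this call was lost without that library. ∆Tgxyr1 gave −0.41 ± 0.27 at 24 h (adjusted p = 0.27), with 29.4, 21.1 and 27.6 RPKM on Avicel and 34.6, 36.5 and 32.9 RPKM on xylan. Its Avicel libraries were the lower ones, without overlap, and the 95% interval of the difference was −0.95 to 0.13. At 72 h the Avicel minus xylan differences were 0.23 in ∆Tgxyr1, 1.65 in ∆Tgace1, 1.31 in ∆Tgace2 and 1.26 in WT, none of them past the fold limit.

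Carbon starvation alone was also accompanied by higher levels. WT on CS had 21.1 and 21.6 RPKM at 4 h, 35.7, 36.0 and 34.9 RPKM at 24 h and 49.6 and 53.8 RPKM at 72 h. Every one of these libraries was above all 0 h libraries, and the levels were separated from one time to the next. The differences from 0 h were 0.75 ± 0.30 (adjusted p = 0.046), 1.46 ± 0.27 (adjusted p = 5.3e-06) and 1.99 ± 0.30 (adjusted p = 6.5e-08), the last just under the fold limit, where 7.62% of genes were called higher. In ∆Tgxyr1 the CS levels were 14.6, 16.3 and 16.3 RPKM at 4 h, 23.2, 21.4 and 21.1 RPKM at 24 h and 27.4, 26.5 and 22.4 RPKM at 72 h.

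Against CS of the same time, OPB36832 was called in 0 of 12 polysaccharide comparisons by limma. An adjusted p of at most 0.01 was reached in 2 of them and an unadjusted p under 0.05 in 4, while 3.21% of all gene-and-comparison pairs were called in either direction. WT on xylan at 24 h was below CS by −1.96 ± 0.27 (adjusted p = 7.2e-09), with 8.01, 9.12 and 8.17 RPKM on xylan and 35.7, 36.0 and 34.9 RPKM on CS. The groups did not overlap, and 4.53% of genes were called lower there. WT on Avicel at 24 h was above CS by 1.09 ± 0.27 (adjusted p = 0.0059), and by 0.40 (adjusted p = 0.49) without the high Avicel replicate 3. At 72 h Avicel minus CS was 0.72 in WT (adjusted p = 0.045), 0.36 without replicate 1 and 1.06 without replicate 2. In ∆Tgxyr1 the 6 differences from CS lay between −0.03 and 0.64, and none was called.

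On xylan, Avicel and CS at 3 times, the mean level in ∆Tgxyr1 was below that of WT in 8 conditions and above it on xylan at 24 h. Among 24 comparisons of a mutant with WT, 1 was called, and 9 had an adjusted p of at most 0.01. Over all genes 7.39% of such pairs were called in either direction. On Avicel at 24 h ∆Tgxyr1 had 29.4, 21.1 and 27.6 RPKM, against 42.0, 52.8 and 200.4 RPKM in WT. The libraries did not overlap, and the difference of −1.53 ± 0.27 (adjusted p = 1.7e-06) was below the fold limit, where 4.79% of genes were called lower. Without WT replicate 3 it was −0.84 (adjusted p = 0.0028).

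At 72 h on Avicel ∆Tgxyr1 had 29.8, 32.5 and 31.2 RPKM, against 143, 53.4 and 82.8 RPKM in WT. Again all ∆Tgxyr1 values were under the lowest WT value, with a difference of −1.44 ± 0.27 (adjusted p = 8.8e-06) and 5.47% of genes called lower. It was −1.07 without WT replicate 1 and −1.77 without WT replicate 2. On xylan at 4 h ∆Tgxyr1 had 15.4, 15.8 and 14.9 RPKM, against 25.4, 20.7 and 26.3 RPKM in WT, a difference of −0.61 ± 0.27 (adjusted p = 0.064). At 72 h it had 28.8, 25.7 and 24.8 RPKM, against 36.9, 36.5 and 32.6 RPKM in WT, a difference of −0.41 ± 0.27 (adjusted p = 0.22). The ∆Tgxyr1 libraries lay below those of WT without overlap at both times. On xylan at 24 h alone ∆Tgxyr1 was the higher: it had 34.6, 36.5 and 32.9 RPKM, against 8.01, 9.12 and 8.17 RPKM in WT. The difference was 1.92 ± 0.27 (adjusted p = 8.8e-09), just under the fold limit, and 7.49% of genes were called higher. On CS the differences were −0.42 at 4 h, −0.67 at 24 h (adjusted p = 0.034) and −0.9999 at 72 h (adjusted p = 0.0054).

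**Figure D3:**
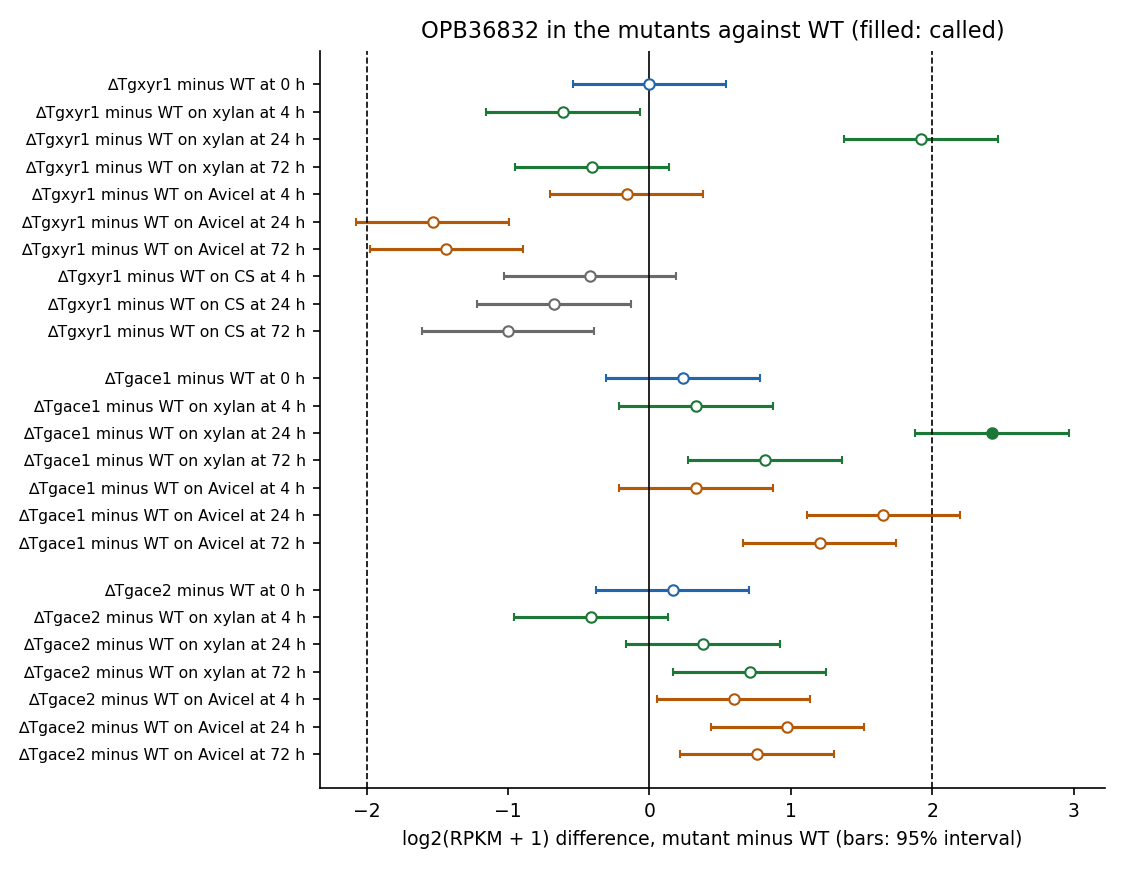
Log2 difference of OPB36832 between each mutant and WT in the 24 matched conditions, as points with 95% intervals, with dashed lines at −2 and 2. ∆Tgxyr1 lies at −1.53 and −1.44 on Avicel at 24 h and 72 h and at 1.92 on xylan at 24 h, and the called difference is ∆Tgace1 on xylan at 24 h, at 2.42.

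The called mutant difference was ∆Tgace1 on xylan at 24 h, with 68.2, 23.5 and 75.2 RPKM in ∆Tgace1 and 8.01, 9.12 and 8.17 RPKM in WT. Even the low ∆Tgace1 replicate 2 was above all WT libraries. The difference was 2.42 ± 0.27 (adjusted p = 1.3e-11), 4.42% of genes were called higher, and it was 2.13, 2.20 and 2.95 when ∆Tgace1 replicate 3, 1 or 2 was left out. With the spread of these groups alone its adjusted p was 0.0103, over the limit. Over all genes 443 were called higher and 598 lower, and 331 and 813 after median scaling. On Avicel ∆Tgace1 exceeded WT by 1.65 ± 0.27 at 24 h (adjusted p = 6.7e-07) and 1.20 ± 0.27 at 72 h (adjusted p = 2.0e-04). The libraries did not overlap with WT at either time. Neither difference was called, although 4.16% of genes were called higher at 24 h. Without the high WT replicate 3 that of 24 h was 2.34 and was called.

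In ∆Tgace2 no difference from WT was called. The 7 differences ran between −0.41 and 0.97, and that on Avicel at 24 h, 0.97 ± 0.27 (adjusted p = 0.0018), was the only one with an adjusted p of at most 0.01. There ∆Tgace2 had 145, 150 and 159 RPKM and WT 42.0, 52.8 and 200.4 RPKM, so the high WT library exceeded every ∆Tgace2 library.

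Whether the response to transfer itself differed between strains was tested as the difference of differences, 21 in all, each sharing its 0 h and WT libraries with others. OPB36832 was called in 1, an adjusted p of at most 0.01 was reached in 5, and 6.62% of gene-and-comparison pairs were called in either direction. The response of ∆Tgace1 minus that of WT on xylan at 24 h was 2.19 ± 0.39 (limma, adjusted p = 1.2e-05), with 2.6% of genes called higher. It fell under the fold limit without ∆Tgace1 replicate 1 (1.96) or replicate 3 (1.89) and was 2.71 without replicate 2. The response of ∆Tgxyr1 was larger than that of WT on xylan at 24 h by 1.92 (adjusted p = 3.8e-05) and smaller on Avicel by −1.53 at 24 h (adjusted p = 7.0e-04) and −1.44 at 72 h (adjusted p = 0.0027). Without WT Avicel replicate 3 that of 24 h was −0.84. On Avicel at 24 h the response of ∆Tgace1 was larger by 1.42 (adjusted p = 0.0026), or 2.10 and called without the same WT library, and all 6 response differences of ∆Tgace2 missed an adjusted p of 0.01.

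The uneven WT libraries on Avicel were uneven for other genes of the system too. At 24 h, replicates 1, 2 and 3 had 42.0, 52.8 and 200.4 RPKM of OPB36832, 12.4, 15.0 and 79.6 RPKM of TgXyr1 (OPB38038), and 32.1, 61.6 and 378 RPKM of the β-glucosidase gene CEL1b (OPB36831). The cellobiohydrolase gene *cbh1* (OPB45635), whose product cuts cellobiose from chain ends of cellulose, had 7.003, 118.7 and 2695 RPKM. Replicate 3 was the highest for all 4 genes.

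At 72 h the order was 143, 53.4 and 82.8 RPKM for OPB36832, 143.1, 36.3 and 17.7 RPKM for TgXyr1, 699, 33.2 and 308 RPKM for CEL1b and 4670, 0.972 and 895 RPKM for *cbh1*. Replicate 1 was the highest throughout, and replicate 2, the library closest to CS, was the lowest except for TgXyr1. In that replicate OPB36832 was at 53.4 RPKM, next to the 49.6 and 53.8 RPKM of WT on CS at 72 h. In those CS libraries TgXyr1 had 25.1 and 25.5 RPKM and *cbh1* 0.137 and 0.207 RPKM. The part of the uneven libraries in the WT results was not tested beyond leaving each out.

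**Figure D4:**
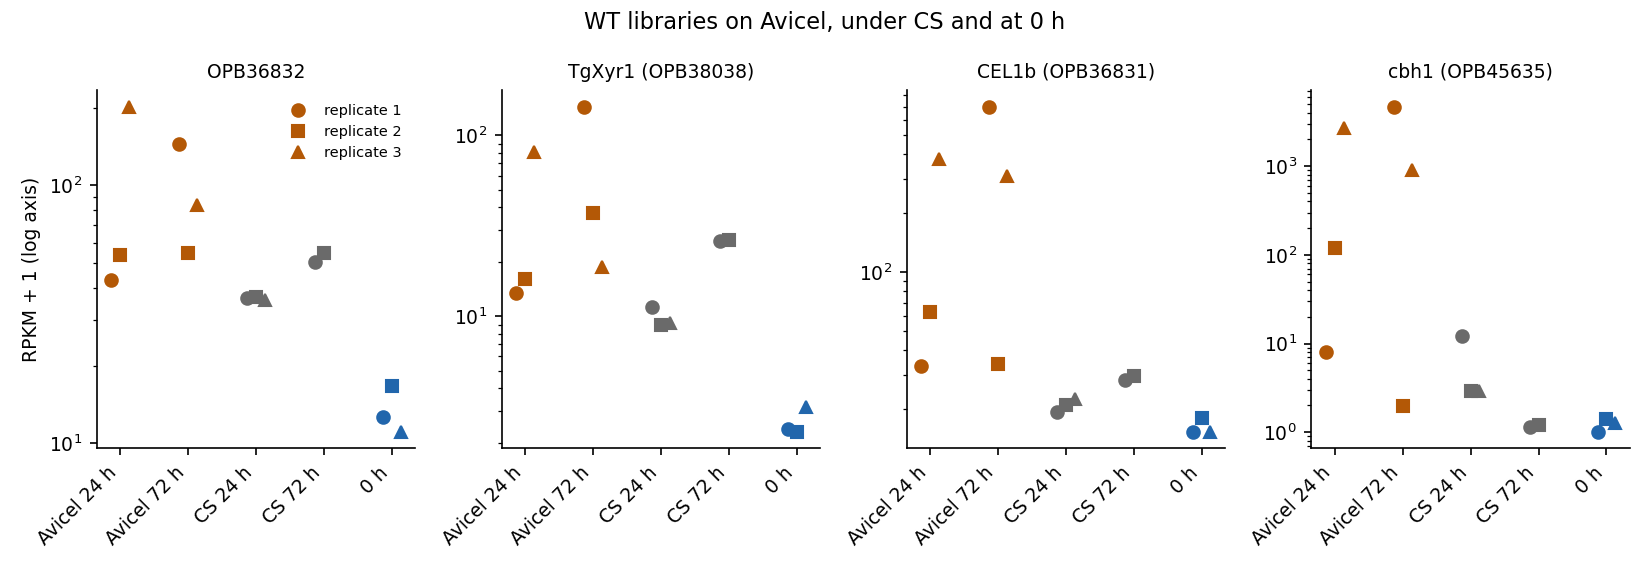
RPKM + 1 (log axis) of OPB36832, TgXyr1, CEL1b and *cbh1* in single WT libraries on Avicel and CS at 24 h and 72 h and at 0 h, with symbols for replicates 1 to 3. Replicate 3 on Avicel at 24 h and replicate 1 at 72 h are the highest of their group for all 4 genes, and *cbh1* in replicate 2 at 72 h is at 0.972 RPKM.

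Set among other Zn2Cys6 genes, OPB36832 was among the more responsive on Avicel. By the difference from 0 h it ranked 5th of 224 tested in WT at 24 h (13th without replicate 3) and at 72 h, 2nd in ∆Tgace1 at 24 h and 4th in ∆Tgace2 at 24 h, against 49th in ∆Tgxyr1 on Avicel at 24 h and 159th in WT on xylan at 24 h. By level in RPKM it ranked 67th of 234 such genes in WT at 0 h, 11th in WT on Avicel at 24 h and 3rd in ∆Tgace1 on Avicel at 24 h. Of the other 223 Zn2Cys6 genes tested, 10 rose and 7 fell in WT on Avicel at 24 h, with a median of 0.35. Over all genes 6.88% rose and 7.05% fell there, so neither share of the family was above that of all genes.

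Of all genes tested, 84 (0.838%) were called higher in all 6 Avicel comparisons of ∆Tgace1, ∆Tgace2 and WT at 24 h and 72 h. They held 2 of the 224 Zn2Cys6 genes (0.893%), TgXyr1 and OPB36832, a share near that of all genes. Of the 84, 19 (22.6%) were called in none of the 9 comparisons of ∆Tgxyr1 with its 0 h, and both regulators were among these 19. The same share over all genes was not taken, so the 19 are given as a count only. OPB36832 was still above 0 h in all 9, by 0.3 to 1.4 on the log2 scale. In 6 of the 9 its adjusted p by limma was at most 0.01, so it missed the fold limit there but did change. Without WT replicate 3 on Avicel at 24 h the 84 became 70, with TgXyr1 still among them and OPB36832 not. Without WT replicate 2 at 72 h they became 66, with both among them. The TgXyr1 gene is deleted in ∆Tgxyr1, so its place there is given by the strain. The 6 comparisons share their 0 h libraries within a strain.

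TgXyr1, the activator whose *T. reesei* counterpart controls both cellulase and xylanase genes, was the regulator with the most similar course. It rose on Avicel at 24 h by 5.07 in ∆Tgace1, 4.88 in ∆Tgace2 and 3.33 in WT (each ± 0.40; 2.51 and called in WT without replicate 3), and in WT on CS at 72 h by 3.35 ± 0.45, where OPB36832 gave 1.99. On xylan at 24 h TgXyr1 gave 0.26 in WT (adjusted p = 0.65), with 3.19, 1.33 and 1.99 RPKM, against 1.37, 1.29 and 2.15 RPKM at 0 h. These libraries overlapped. In ∆Tgace1 on xylan at 24 h it had 25.0, 7.92 and 27.1 RPKM, with replicate 2 again the lowest, as it was for OPB36832.

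The other named regulators followed different courses. TgCLR-2 (OPB38568), whose counterpart in *Neurospora crassa* activates cellulase genes, rose on Avicel at 24 h in ∆Tgxyr1 by 3.84 ± 0.38 (55.7, 37.7 and 80.9 RPKM, against 2.34, 3.50 and 3.07 RPKM at 0 h). Its groups there did not overlap, whereas OPB36832 gave 1.01 ± 0.27 in the same libraries. The glucose repressor gene *creA* (OPB38360) rose by 3.22 ± 0.28 in ∆Tgxyr1 on Avicel at 24 h and gave 0.18 in WT, and TgACE2 gave 0.15 in WT. The list of carbon and hydrolase control genes includes a name-only match, the CaaX protease gene OPB46604. Among the 13 genes tested from this list, 1 rose and 1 fell in WT on Avicel at 24 h (median 0.25), near the 6.88% and 7.05% of all genes. The one that rose was TgXyr1, and the one that fell was OPB42967, annotated as a heteromeric CCAAT factor, by −2.12 ± 0.32. On xylan at 24 h in WT 3 of 13 rose: the creB and creC partners of the *creA* system, OPB37041 (2.12) and OPB36414 (2.67), and OPB42967 (2.05). There 4.58% of all genes rose and 3.14% fell.

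Genes of the main cellulases and of xylan-degrading enzymes are given beside OPB36832. Whether it acts on any of them was not tested. In WT on Avicel at 24 h, where OPB36832 rose by 2.55, 8 of 11 main cellulase genes rose and 0 fell (median 2.89, against 0.06 over all genes, of which 6.88% rose), among them *cbh1* (6.82), *cbh2* (OPB43438, 5.65), *cel61b* (OPB46655, 4.12) and *egl2* (OPB43431, 3.86). Of 15 xylan-degrading genes 8 rose and 0 fell (median 2.64), among them the acetyl xylan esterase gene OPB46214 (7.19) and *xyn2* (OPB43840, 5.77), which encodes an endoxylanase. These counts rested on 1 library: without replicate 3, the high one, 2 of 11 and 4 of 15 rose (medians 1.49 and 0.86), against 6.74% of all genes. Of the genes just named, *cel61b* (OPB46655, 2.29, adjusted p = 0.039) and *egl2* (OPB43431, 1.90, adjusted p = 0.028) were then no longer called.

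At 72 h in WT 10 of 11 cellulase and 9 of 15 xylan-degrading genes rose, against 2.85% of all genes. Without replicate 1 the counts were 5 of 11 and 7 of 15, and without replicate 2 they were 10 of 11 and 11 of 15. In ∆Tgace1 on Avicel at 24 h 10 of 11 and 11 of 15 rose, against 4.27% of all genes, and in ∆Tgace2 11 of 11 and 10 of 15, against 7.24%. In ∆Tgxyr1, where OPB36832 was not called, 1 of 11 and 3 of 15 rose, against 11.4% of all genes.

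On xylan at 24 h in WT, with OPB36832 at its lowest, 9 of 15 xylan-degrading genes rose (median 2.92), against 4.58% of all genes, such as *xyn2* by 7.22 and the β-xylosidase gene BXL1 (OPB36249) by 6.42. Of 11 main cellulase genes 0 rose there and 1 fell (3.14% of all genes), the β-glucosidase gene CEL1a (OPB39337), by −2.82. Between ∆Tgace1 and WT on xylan at 24 h, where OPB36832 was called higher, 12 of 15 xylan-degrading and 3 of 11 cellulase genes were called higher and 1 cellulase gene lower, against 4.42% and 5.96% of all genes. On CS at 72 h in WT, with OPB36832 at 51.7 RPKM, 0 of 11 cellulase genes and 2 of 15 xylan-degrading genes rose (medians −0.05 and 0.06), against 7.62% of all genes. Among sugar transporters, which import the released sugars, 3 of 21 rose and 3 fell, where 10.6% of all genes fell.

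The genes whose pattern over the 34 group means was most like that of OPB36832 were ranked by Pearson's r on log2(mean RPKM + 1). The points share strains and libraries, and r is given as a description. The 10 highest were the GH30 endoxylanase gene OPB43779 (0.89), *cip2* for a glucuronoyl methylesterase (OPB43780, 0.88), OPB45123 (0.88), OPB45638 (0.88), a GH10 gene (OPB45659, 0.87), *axe1* for an acetylxylan esterase (OPB40352, 0.87), CIP1 (OPB41189, 0.87), *cel61a* (OPB41190, 0.87), OPB37732 (0.86) and a ferric reductase gene (OPB43646, 0.86). The highest group means of OPB37732 and OPB43646 were only 2.9 and 6.3 RPKM, both in ∆Tgace1 on Avicel at 72 h, so their r rests on low levels. Of the 10025 genes other than OPB36832, 32 had an r over 0.8, and the median was 0.02. They included 9 of 11 main cellulase genes, 2 of 15 xylan-degrading genes, 1 of 13 genes on the regulator list (TgXyr1, 0.81) and 0 of 21 sugar transporters. The r of TgXyr1 includes the ∆Tgxyr1 groups, where its level is fixed by the deletion.

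Similar shape went with unequal size. In ∆Tgace1 on Avicel at 24 h CIP1 (OPB41189) rose by 10.3 ± 0.95 and *cip2* (OPB43780) by 9.97 ± 0.94, against 3.96 for OPB36832. OPB45123, annotated as hypothetical, was closest by Spearman's rho (0.91) and moved less, by 1.54 in ∆Tgace1 and 1.44 in WT, neither called. The rank correlations of the hydrolase genes were lower than their r: 0.59 for OPB43779, 0.60 for *cip2* (OPB43780) and 0.60 for *cbh1* (OPB45635). For TgXyr1 (OPB38038) rho was 0.70.

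Within single strains, r of TgXyr1 with OPB36832 was 0.99 over the 7 groups of ∆Tgace1, 0.97 over the 7 of ∆Tgace2 and 0.93 over the 10 of WT. Over the 10 WT groups alone the closest genes were the β-glucosidase gene BGL1/CEL3a (OPB36250, 0.94), TgXyr1 (OPB38038, 0.93), a GH95 gene (OPB40919, 0.92), OPB36510 (0.92) and OPB37494 (0.92). In ∆Tgxyr1, where OPB36832 stayed within a 2.82-fold span, r with *cbh1* (OPB45635) was 0.35 over 10 groups and with CEL1b (OPB36831) 0.22. The study counts the exoglucanase genes among those controlled by both TgXyr1 and CS. It reports that without TgXyr1 their induction by polysaccharides dropped to a low level like that on CS. This limits what r can show in ∆Tgxyr1. At the opposite end of the 34-group ranking were OPB43061 (−0.75), OPB38250 (−0.71) and the NifU-like OPB39812 (−0.71).

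**Figure D5:**
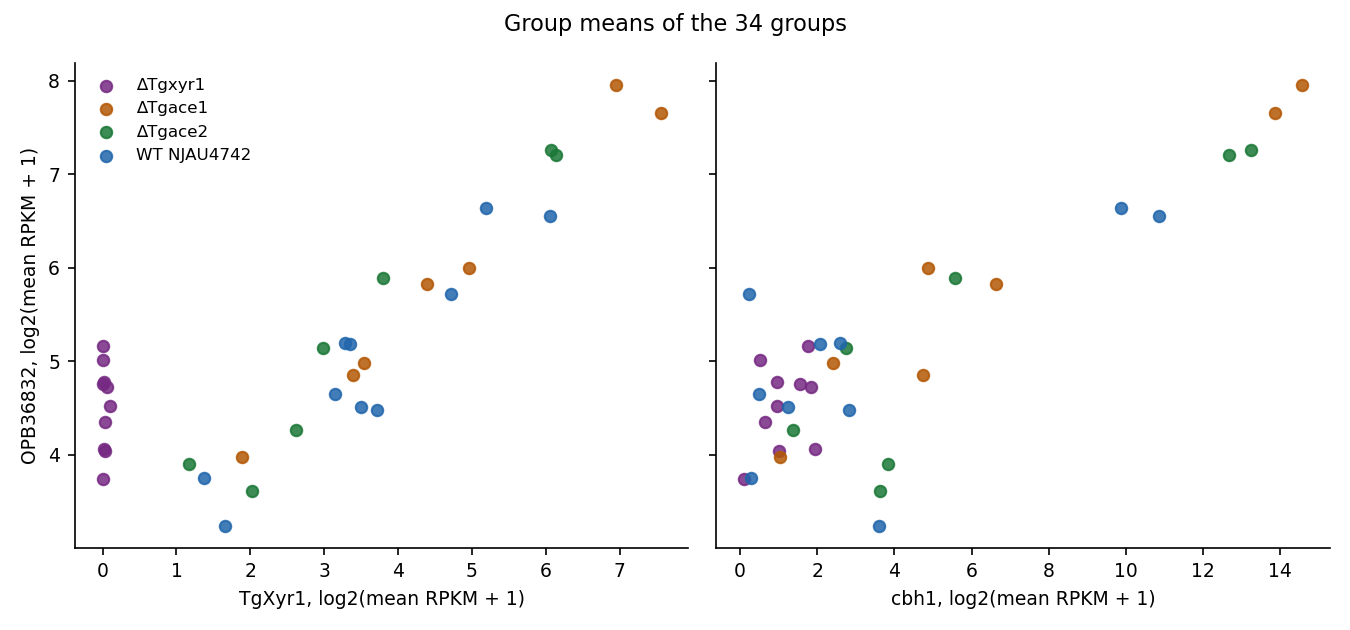
Group means of OPB36832 against those of TgXyr1 and of *cbh1*, both on the log2(mean RPKM + 1) scale, 1 point for each of 34 groups, coloured by strain. The 6 late Avicel groups of ∆Tgace1, ∆Tgace2 and WT lie at the upper right of both panels, and the ∆Tgxyr1 groups stay at 34.7 RPKM or below for OPB36832.

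The genes with the 4 identifiers before and after OPB36832 are given by number only, since their positions were not read here. CEL1b (OPB36831), the identifier just before, had a like course: on Avicel at 24 h it rose by 6.88 in ∆Tgace1, 5.19 in ∆Tgace2 and 2.51 in WT (each ± 0.46). It gave 0.30 in ∆Tgxyr1 (adjusted p = 0.59) and −0.85 in WT on xylan at 24 h (adjusted p = 0.13). Against WT on Avicel at 24 h it fell in ∆Tgxyr1 by 2.16 on the log2 scale. Without WT replicate 3 neither WT comparison was called, with 1.49 ± 0.44 against 0 h (adjusted p = 0.0029) and −1.14 ± 0.44 for ∆Tgxyr1 against WT (adjusted p = 0.024). OPB36833, annotated as a secreted hypothetical protein, rose on Avicel at 24 h in WT (3.34) and also in ∆Tgxyr1 (2.38), and in WT on CS at 72 h by 6.42. The MFS permease gene OPB36829 fell in WT on Avicel at 24 h, by −2.34. The other 5 were not called there, with values between −1.45 for the hexose transporter gene OPB36830 (−2.21 and called without replicate 3) and 1.06 for the acyl-CoA dehydrogenase gene OPB36828.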

How the data were processed

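The deposited table held RPKM values for 11244 genes in 100 libraries. Per the study's methods, reads were filtered (FASTX-Toolkit), mapped to the NJAU4742 genome (TopHat2 with Bowtie2) and normalised (Cuffnorm) by the authors, whose processing notes also list Cufflinks and Cuffdiff. Tool versions are not given in the sources used here. The unit is called RPKM in one place and FPKM in another. The RPKM of a library summed to between 553844 and 3295522, and 1003 to 2173 genes were listed at 0. Low values were whole multiples of a library-specific step (98.1% of 50407 low values within 0.1 of a whole number), and this step differed 7.38-fold between libraries, so precision at low levels differed with depth. Counts of OPB36832 were not recovered.

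Groups came from the GEO labels. All 100 columns were matched to samples, with 0 unmapped. Values were analysed as log2(RPKM + 1) for 10026 genes, those exceeding 1 RPKM in 2 libraries or more. One limma 3.58.1 model (R 4.3.3) of 34 group means, with an intensity trend and 66 residual degrees of freedom, gave all differences. Tests were two-sided with Benjamini-Hochberg adjustment over genes within each comparison. The limits of a call were 0.01 for adjusted p, 2 for the size of the log2 difference and 2 RPKM for the higher mean. The steps were tested on simulated data with 1 spread per gene, equal in all groups. They therefore do not show how calls hold where the replicates of a group are uneven. Tables and figures were made with Python 3.11.15, pandas 2.3.3, numpy 2.4.6 and matplotlib 3.10.9.

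Genes named were OPB36832, the regulators the study names by identifier, the 4 identifiers on each side, the 10 most and 3 least similar genes over 34 groups, the 5 most similar over WT groups, and the largest changes of each list, at most 4. The gene and the lists were chosen with earlier results of these data known. The regulator list includes a name-only match, the CaaX protease gene OPB46604. Alternatives were pseudocounts of 0.1 and 2, no filter, a filter of 5 RPKM in at least 3 libraries, median scaling, array weights, a replicate block, only the compared groups, unadjusted p and leaving out each library. The lists and other named genes were also counted without 4 uneven libraries, 1 at a time, chosen after seeing the data. The TgACE1 row was not analysed here, so the ∆Tgace1 labels were not checked by their target.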

Additional observations from a re-analysis of the deposited data

Results flagged for a closer look

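A test of the difference between strains set apart 5 responses of OPB36832 to transfer, each at an adjusted p of at most 0.01 by limma among 21 tested and each taken against the response of WT. The response of ∆Tgxyr1 was larger than that of WT on xylan at 24 h, by 1.92 ± 0.39 on the log2 scale. On Avicel it was smaller, by −1.53 ± 0.39 at 24 h and −1.44 ± 0.39 at 72 h. That of ∆Tgace1 was larger on xylan at 24 h, by 2.19 ± 0.39, and on Avicel at 24 h, by 1.42 ± 0.39. On Avicel 3 of these 5 lost the adjusted p of 0.01 when 1 library was left out. At 24 h, that of ∆Tgxyr1 was −0.84 (limma, adjusted p = 0.030) without WT replicate 3, and that of ∆Tgace1 was as low as 0.99 (adjusted p = 0.039) without WT replicate 1. At 72 h that of ∆Tgxyr1 was −1.07 (adjusted p = 0.031) without WT replicate 1. All 5 use the WT 0 h libraries, and the pairs at 24 h on the same substrate share their WT libraries.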

How the results depend on the processing

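As reported, OPB36832 was called in 7 of 30 comparisons with 0 h, 1 of 24 of a mutant with WT, 3 of 12 of Avicel with xylan, 0 of 12 with CS and 1 of 21 response differences. With a pseudocount of 0.1 the counts for mutants, CS and responses were 2, 1 and 2. With array weights those for mutants and responses were 3 and 4. With only the compared groups fitted both were 0. With no fold limit, chosen after seeing the data, the 5 counts were 22, 9, 6, 2 and 5. Leaving out 1 library gave 1 to 2 for mutants (2 without WT Avicel 24 h replicate 3), 0 to 1 for CS (1 without WT xylan 24 h replicate 2) and 0 to 2 for responses. The response count was 0 without ∆Tgace1 xylan 24 h replicate 1 or 3 and 2 without WT 0 h replicate 3, WT Avicel 24 h replicate 3 or ∆Tgxyr1 0 h replicate 1. Leaving out the 9 libraries closest to another group, also chosen after seeing the data, kept every count within 1.5 times, but ∆Tgace1 on xylan at 24 h was then called against 0 h (2.15), while ∆Tgace1 on xylan at 72 h against 0 h (1.97) and on Avicel against xylan at 24 h (1.83) were not. Under median scaling, a pseudocount of 2, either filter and unadjusted p the counts stayed within that range. The cause was not tested.

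The replicate block moved no count by over 1.5 times and took WT on CS at 72 h minus 0 h to 2.0008, past the fold limit. Replicate numbers were not read as pairs, since in 1 of 70 comparisons with 3 pairs every same-numbered pair correlated above 0.1. Per the study's methods, part of the broth was sampled at each time, and whether the times share flasks is not stated. Correlations over 3 pairs cannot settle this, so groups of different times may not be independent. Median scaling (1.92) and a pseudocount of 2 (1.96) ended the call of ∆Tgace1 on xylan at 72 h. Fits of only the compared groups ended those of WT on Avicel at 24 h and 72 h, and of ∆Tgace1 on xylan at 24 h against WT, against Avicel (2.27, adjusted p = 0.062) and as a response (2.19, adjusted p = 0.027).

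Differences near 0 changed sign. That of ∆Tgxyr1 from WT at 0 h was 0.00063 with a pseudocount of 0.1. With array weights the responses of ∆Tgace1 on Avicel at 4 h and of ∆Tgace2 on Avicel at 72 h were −0.040 and −0.034, and without the 9 libraries the first was −0.10. With 1 library left out, ∆Tgxyr1 minus WT at 0 h ranged over −0.13 to 0.17, WT Avicel minus CS at 4 h over −0.025 to 0.089, and ∆Tgxyr1 xylan minus CS at 72 h over −0.030 to 0.11. The responses of ∆Tgace1 at 4 h ranged over −0.078 to 0.22 on xylan and −0.075 to 0.23 on Avicel. Median scaling moved the median of all genes by over 0.1 in some comparisons, for instance −0.15 against 0.03 as deposited for WT on CS at 72 h, and −0.03 against 0.14 for ∆Tgace1 minus WT on xylan at 24 h.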
